A study of Homo sapiens with 8 samples.

Results

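The ribosomal protein genes encode the protein subunits of the cytosolic ribosome. Members were the genes listed in either of the 2 deposited tables of poly(A) site pairs whose symbol is that of a large subunit protein (RPL genes), a small subunit protein (RPS genes and RPSA) or the stalk protein RPLP0, with kinases and pseudogenes left out. Symbols were matched by a pattern, which does not take in every RPL symbol and leaves out RPL36AL. By this rule 48 members were found among 7504 genes listed. All samples were MDA-MB-231 breast cancer cells or cells derived from them, and mRNA 3′-end sequencing was done on 8 samples in 4 groups of 2. One table compares MDA-LM2 cells, the highly metastatic derivative, with parental MDA-MB-231 cells. The other compares sgHNRNPC cells, which are MDA-MB-231 with the RNA-binding protein HNRNPC knocked down by CRISPR interference, with control cells (sgControl). Both tables list sites rather than levels, so neither read depth, replicate error nor markers of the cell line could be examined. The change in site use between conditions is present only as the result of the authors' own regression. It was not used here, and what follows describes which sites were listed and what lies at them.

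Cleavage and polyadenylation set the 3′ end of an mRNA, and many genes hold more than 1 poly(A) site, so that the mRNA can end early at a proximal site or late at a distal one. Most sites carry the hexamer AATAAA or its variant ATTAAA shortly before the cut, and HNRNPC is known to bind runs of U in RNA and to affect the choice between sites. Ribosomal protein mRNAs are among the most abundant of a growing cell, start with a 5′ terminal oligopyrimidine (TOP) tract that ties their translation to growth signalling, and are the parents of a large family of processed pseudogenes, which are copies of spliced mRNA returned to the genome.

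The ends below were chosen because they are the outermost placed ends of 4 of the 5 members with the widest spans, and they show the sequence on which a proximal and a distal site of a gene differ. Each line gives the last 30 bases of an annotated transcript, 5′ to 3′ on the strand of the gene, with the hexamer AATAAA or ATTAAA in capitals. The sequences are those of GENCODE 44 transcripts and the positions are on GRCh38.
RPL28 proximal, chr19:55387007-55387036, plus strand: ggatggtttcatcccacaggtgggaagatt
RPL28 distal, chr19:55392071-55392100, plus strand: tcatctactttaaaatctttcattatgaaa
RPS7 proximal, chr2:3576844-3576873, plus strand: gcaacatggtaagaccctgtctacaaaaaa
RPS7 distal, chr2:3580890-3580919, plus strand: tgactaAATAAAaagtatatattcacagta
RPL27A proximal, chr11:8685819-8685848, plus strand: ggagtttcATTAAAtgctaactactttttc
RPL27A distal, chr11:8689843-8689872, plus strand: aaaagatgtttttaacaaaaatgtaactga
RPL37 proximal, chr5:40827703-40827732, minus strand: ggataaaggaaggacttaagcaaaatcttc
RPL37 distal, chr5:40825262-40825291, minus strand: tttctttAATAAAgatattgtacaatgaaa
In RPS7 and RPL37 the distal end carried the hexamer within these bases and the proximal end did not. In RPL27A it was the proximal end that carried it, and the distal end held none in its last 50 nt. The distal end of RPL28 carried AATAAA 37 nt before the end, upstream of the bases shown.

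Ribosomal protein genes were listed more often than protein-coding genes in general. Of 86 members annotated in GENCODE 44, 46 (53.5%) had pairs in the MDA-LM2 table and 47 (54.7%) in that of sgHNRNPC. Over all 20020 protein-coding genes the shares were 31.4% and 32.6%. A listed gene has at least 1 pair of sites, and as the tables give no gene levels, a relation of listing to level was not tested. Among 78 protein-coding genes of the mitochondrial ribosome, 29 (37.2%) and 37 (47.4%) were listed. Among 18 other genes with 5′ TOP mRNAs, such as those of translation elongation factors, 15 (83.3%) and 17 (94.4%) were listed.

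The subunits were represented alike. Of 52 genes of the large subunit 29 were listed in either table (55.8%), and of 34 genes of the small subunit 19 (55.9%). Of the 3 stalk genes, whose proteins recruit the GTPases of translation, RPLP0 was listed and RPLP1 and RPLP2 were not. Of 9 subunit paralogs, RPL22L1, RPL7L1 and RPS27L were listed. Of 18 genes mutated in Diamond-Blackfan anaemia, a failure of red cell production caused by defects of the ribosome, 11 were listed in either table. These were RPL11, RPL15, RPL18, RPL27, RPL31, RPL35A, RPS7, RPS19, RPS24, RPS26 and RPS29. The 38 annotated members that were in neither table included RPL5, RPL12, RPL19, RPL30, RPS4X, RPS16 and RPS27A, all of them constituents of the ribosome in most cells.

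A member had 2 to 6 sites. Counted over both tables, 20 members had exactly 2 sites, 19 had 3, and 9 had 4 or more. At least 3 sites were listed for 19 of 46 members in the MDA-LM2 table (41.3%, 95% Wilson interval 28.3 to 55.7) and for 26 of 47 in the sgHNRNPC table (55.3%, 41.2 to 68.6). As 45 members were listed for both comparisons, these intervals do not measure the difference between the shares. Among all genes the shares were 52.9% and 55.0%. By subunit, 17 of 29 members of the large subunit and 11 of 19 of the small subunit had at least 3 sites over both tables, as did 5 of the 11 members tied to Diamond-Blackfan anaemia.

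**Figure D1:**
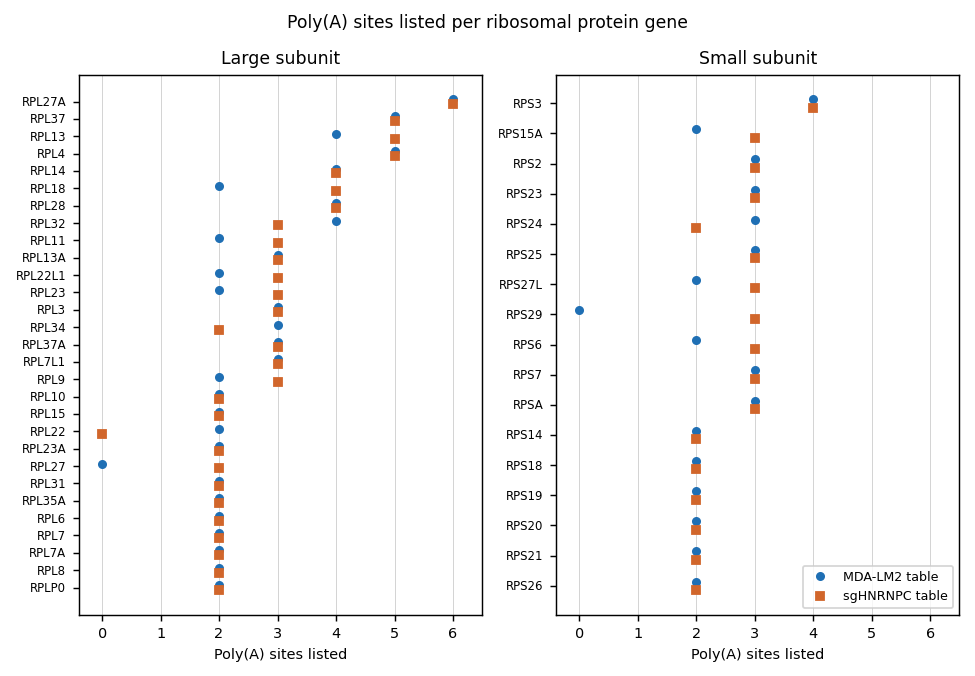
Poly(A) sites listed per ribosomal protein gene (horizontal axis, number of sites; each gene is a row) from the MDA-LM2 comparison (circles) and the sgHNRNPC comparison (squares), with 0 for a gene that a table does not list; 2 members are not shown. RPL27A has 6 sites in both tables, and RPL22, RPL27 and RPS29 have sites in 1 table.

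RPL27A and RPL37 had the most sites, 6 each. RPL27A, a large subunit protein, was listed with 6 sites and all 15 of their pairs in both tables, 4 of them named by genomic position and 2 by transcript. RPL37, a zinc-binding protein of the large subunit, was listed with 5 sites in each table, 1 of which differed between the tables. RPL4 had 5 sites in both tables, all named by genomic position. RPL13 had 4 sites in the MDA-LM2 table against 5 in the other, and RPL18 had 2 and 4. RPL32 went the other way with 4 and 3. RPL14, RPL28 and RPS3, the last a small subunit protein at the mRNA entry channel, had 4 sites in both tables. RPL11, which also binds MDM2 when ribosome assembly fails, had 2 sites in the MDA-LM2 table against 3 in the other.

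Members kept largely the same sites in both tables. Of their 139 sites 117 were in both, which is 95.1% of the MDA-LM2 sites and 88.0% of the sgHNRNPC sites. Over all genes the shares were 84.5% and 78.5%, in genes of the mitochondrial ribosome 97.6% and 76.4%, and in the other genes with 5′ TOP mRNAs 92.5% and 80.3%. Of 48 members 33 had equally many sites in both tables (68.8%; all genes 46.4%), 11 had more in the sgHNRNPC table (22.9%; all genes 32.5%) and 4 had more in the MDA-LM2 table (8.33%; all genes 21.0%). The 6 sites listed only in the MDA-LM2 table belonged to RPL22, which has 2 of them, RPL32, RPL34, RPL37 and RPS24. The 16 listed only in the sgHNRNPC table included all 3 sites of RPS29, both of RPL27 and 2 of RPL18. RPL22, which has a role in T-cell development besides the ribosome, was thus listed for MDA-LM2 alone, and RPL27 and RPS29 for sgHNRNPC alone. These 3 of 48 members (6.25%) compare with 1666 of 7504 genes listed in 1 table (22.2%). No filter behind these differences is given in the sources used here, and their relation to read depth was not tested.

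Sites were named either by genomic position or by transcript. Positions made up 74 of the 139 member sites (53.2%) and transcript ends the other 65, and 37 members had sites of both kinds. RPL4, RPL10, RPL37A and RPS27L had positions alone, and 7 members had transcript ends alone. The 74 positions are not those of GRCh38: 14.9% lay within 5000 nt of their own gene on that build and 1 lay beyond the end of its chromosome. They are therefore given only as distances between positions of the same gene. Of 156 member pairs 86 joined a position and a transcript end (55.1%), and the order of the sites in these could not be examined. In all 47 pairs of positions and in all 17 pairs of placed transcript ends the site called proximal was upstream on the strand of the gene.

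Positions of the same member were spaced much like those of other genes. Over 33 gaps between neighbouring positions in 23 members the median was 763 nt, against 791 nt over all genes, with the shortest 403 nt in RPL13 and the longest 3008 nt in RPS29. Of the 33 gaps 19 were under 1000 nt (57.6%; all genes 59.3%), and gaps under 400 nt were rare throughout, with 11 of 5929 over all genes. The positions of RPL14 spanned 5662 nt and those of RPL4 4161 nt. The 4 positions of RPL27A spanned 3169 nt and the 4 of RPL37 1980 nt. The median span was 1064 nt in members and 1872 nt over all genes with at least 2 positions.

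Of the 65 transcript ends 60 had the same identifier and version in GENCODE 44 and could be placed on GRCh38. The ends left unplaced belonged to RPL13, RPL13A, RPL7L1, RPL9 and RPS20. The 15 members with at least 2 placed ends had a median span of 1763 nt between the outermost ends, against 5902.5 nt over all genes, 1640 nt in genes of the mitochondrial ribosome and 2308 nt in the other genes with 5′ TOP mRNAs. With ends of protein-coding transcripts alone the median was 673 nt in 8 members and 5062 nt over all genes, and it was 2745 nt in 5 genes of the mitochondrial ribosome and 5216 nt in 5 of the other TOP genes. RPL28 was widest with 5064 nt, from an end in an intron to an end 15 nt past that of the reference transcript. RPS7, which like RPL11 is tied to the p53 pathway, spanned 4046 nt, RPL27A 4024 nt, RPS3 2751 nt and RPL37 2441 nt. RPS21 had the shortest span with 405 nt, followed by RPL32 with 461 nt and RPL13 with 590 nt. The proximal transcripts of RPS21 and RPS3 are tagged in the annotation as incomplete at the 3′ end, so these annotated ends, and the spans measured from them, need not be those of an mRNA.

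Where an end lay was read against a reference transcript of each gene. This was the MANE Select transcript or, for a gene without one, the Ensembl canonical transcript. An end within 25 nt of its last base was counted as at the reference end. Of the 60 placed ends of members 29 were at the reference end (48.3%), near the 45.5% over all genes. In introns of the reference transcript lay 13 (21.7%), against 526 of 11678 ends over all genes (4.50%) and 4 of 51 in genes of the mitochondrial ribosome (7.84%). In the other genes with 5′ TOP mRNAs 1 of 24 ends lay in an intron (4.17%). In coding exons lay 3 member ends (5.0%), against 26.2% over all genes. Transcripts tagged as incomplete at the 3′ end made up 2 of 60 member ends (3.33%) and 11.6% over all genes. Without them 2 of 58 member ends lay in coding exons (3.45%; all genes 17.1%) and 12 in introns (20.7%; all genes 4.65%). The 3′ UTR held 12 (20%), and over all genes 20.7%. Downstream of the reference end lay 3 (5.0%; all genes 1.84%), which were those of RPL15 by 3385 nt, RPS20 by 5759 nt and RPS29 by 12593 nt.

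The intronic ends came from 11 members. RPL23 had 2, at 4738 and 2824 nt before the reference end, and no other placed end. RPS7 had 2, at 4047 and 445 nt before it. RPL28 had 1 at 5049 nt, RPL6 1 at 2832 nt, RPS15A 1 at 2726 nt, RPL31 1 at 2663 nt, RPL34 1 at 2038 nt and RPL18 1 at 1827 nt. The remaining 3 were in RPL7A, RPL7 and RPS21, at 1043, 798 and 405 nt. The 3 ends in coding exons were those of RPS3, RPL6 and RPL31, of which that of RPS3 is tagged as incomplete, like the intronic end of RPS21.

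**Figure D2:**
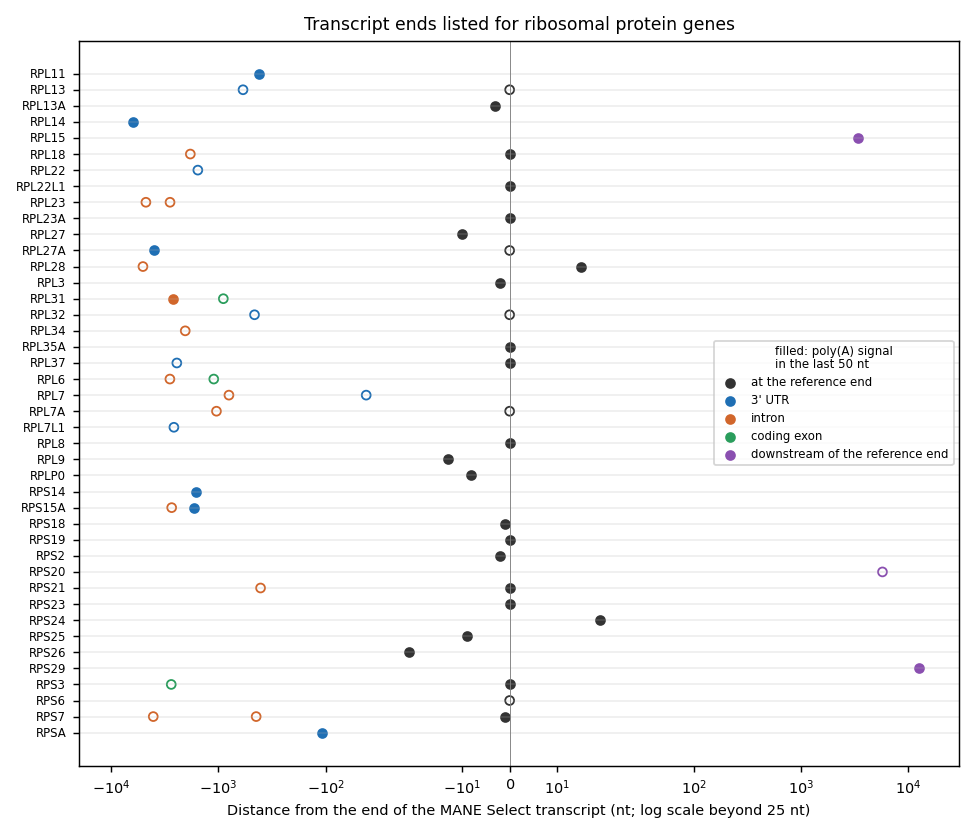
Distance of each placed transcript end of a ribosomal protein gene from the end of its reference transcript, labelled MANE Select on the axis (horizontal axis, nt, linear within 25 nt and logarithmic beyond, negative is upstream, each gene is a row). Ends are coloured by where they lie and filled where a poly(A) signal was found in the last 50 nt. The ends of 2 members are not shown. Most ends at the reference end are filled, and of 13 in introns 1 is.

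Many of these ends belonged to transcripts annotated as retaining an intron. That was so for 18 of 60 member ends (30%), against 12% over all genes and 5 of 51 in genes of the mitochondrial ribosome (9.80%). In the other genes with 5′ TOP mRNAs it was so for 5 of 24 (20.8%). They were not all internal. Of the 29 member ends at the reference end 8 belonged to such transcripts (27.6%), against 4.09% over all genes and 2 of 12 in the other TOP genes (16.7%). In RPLP0, RPS25 and RPL3 the retained intron transcript shared the ordinary end of the gene. A read at such an end does not tell which of the transcripts it came from. Of the other member ends 36 belonged to protein-coding transcripts, 4 to transcripts of coding genes with no coding sequence defined, and 2, in RPL7L1 and RPS14, to targets of nonsense-mediated decay.

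The hexamer AATAAA or ATTAAA was found on the sense strand in the last 50 nt of 32 of 60 member ends (53.3%, 95% Wilson interval 40.9 to 65.4), against 49.0% over all genes. Its reverse complement was found in 4 (6.67%), against 9.98% over all genes. The hexamer nearest the end was AATAAA in 26 and ATTAAA in 6, and it started a median of 22 nt before the end, from 8 nt in RPS25 to 37 nt in RPL28 and RPS24. At the reference end 23 of 29 member ends carried a hexamer (79.3%, 61.6 to 90.2; all genes 83.9%), and elsewhere 9 of 31 did (29%, 16.1 to 46.6; all genes 19.8%). The ends at the reference end in which neither hexamer was found in this window included those of RPL13, RPL27A, RPL32, RPL7A and RPS6. Among the 13 intronic ends only that of RPL31 carried one, which is 7.69% against 23.2% of the intronic ends of all genes.

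Oligo(dT) priming can start inside a transcript where the genome reads a run of A, so the 20 nt of genome after each end were counted. In 3 of 60 member ends at least 12 of these were A (5.0%, 1.71 to 13.7; all genes 5.15%). All 3 were intronic and belonged to retained intron transcripts, with 16 A in RPL34, 15 in RPL23 and 12 in RPS7. Among intronic ends the share was 3 of 13 in members (23.1%) and 59 of 526 over all genes (11.2%). Whether reads at these ends came from such priming was not tested.

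Runs of T, read as U in the RNA, were less frequent at the reference ends of members than at those of all genes. A run of at least 5 T lay on the sense strand in the last 100 nt of 10 of 60 (16.7%, 95% Wilson interval 9.31 to 28), against 27.2% over all genes, which lies within the interval. At the reference end the share was 4 of 29 in members (13.8%, 5.50 to 30.6) and 38.5% over all genes, which lies above it. In genes of the mitochondrial ribosome it was 13 of 32 (40.6%), and in the other genes with 5′ TOP mRNAs 5 of 12 (41.7%). These shares depended on the window and the length of the run. In the last 200 nt a run of 5 T was at 10 of 29 reference ends of members (34.5%, 19.9 to 52.7; all genes 57.6%), and a run of 6 T in the last 100 nt at 0 of 29 (0 to 11.7; all genes 15.6%). With the first window and length, the shares at ends elsewhere were 6 of 31 in members (19.4%) and 17.7% over all genes. The 10 ends were those of RPL15 and RPS20, with 6 T each, and of RPL18, RPL31, RPL7L1, RPS15A, RPS2 and RPS24 with 5, as well as both ends of RPL27A with 5 each. None of the 13 intronic ends held such a run, against 91 of 526 over all genes (17.3%). Runs of 5 A, counted in the same way, were at 22 of 60 member ends (36.7%) and 34.5% of all ends.

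**Figure D3:**
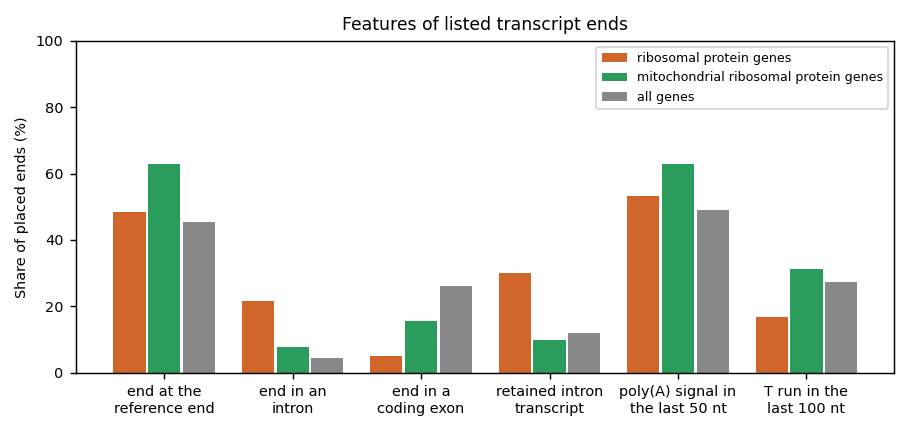
Share of placed transcript ends (vertical axis, percent, from 0) with each feature in ribosomal protein genes (60 ends), genes of the mitochondrial ribosome (51 ends) and all genes (11678 ends). Members have more intronic ends (21.7% against 4.50% over all genes) and more retained intron transcripts (30% against 12%). They have fewer ends in coding exons (5.0% against 26.2%). Over all placed ends the shares with a T run (16.7% against 27.2%) and with a poly(A) signal (53.3% against 49.0%) are closer together. At the reference end alone, not drawn here, the T run shares were 13.8% and 38.5%.

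The reference 3′ UTRs of members were short, with a median of 518 nt (35 to 7242 nt, 48 members). Those of genes of the mitochondrial ribosome had a median of 845 nt, and those of all listed genes 2043 nt. The shortest, of 35 nt, were in RPL6 and RPL8. The longest was that of RPL37, the member with the most sites beside RPL27A, whose reference 3′ UTR has 4066 nt.

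Sequence in the last 300 nt of member transcripts was often not unique to the gene. The last 300 nt of each transcript were cut into all overlapping 31-mers, and those that also occur in transcripts of other genes were counted. More than 50% were shared at 16 of 60 member ends (26.7%, 95% Wilson interval 17.1 to 39.0), against 6.74% over all genes and 5 of 51 in genes of the mitochondrial ribosome (9.80%). The latter genes were taken by symbol alone. Their 51 ends include 1 of a transcribed unprocessed pseudogene and 1 of a long noncoding RNA. The other genes with 5′ TOP mRNAs lay nearer to the members, with 5 of 24 ends (20.8%, 9.24 to 40.5), an interval that overlaps that of the members. For 15 of the member ends the 31-mers in processed pseudogenes alone exceeded 50% (25%), against 0.959% over all genes, 0 of 51 in the mitochondrial ribosome and 3 of 24 in the other TOP genes (12.5%). No 31-mer was shared at 19 member ends (31.7%), against 10 of 24 in the other TOP genes (41.7%) and 78.2% over all genes. The difference was smaller close to the end: in the last 100 nt more than 50% were shared at 7 of 60 member ends (11.7%), against 7.10% over all genes, 4 of 51 in the mitochondrial ribosome (7.84%) and 4 of 24 in the other TOP genes (16.7%).

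**Figure D4:**
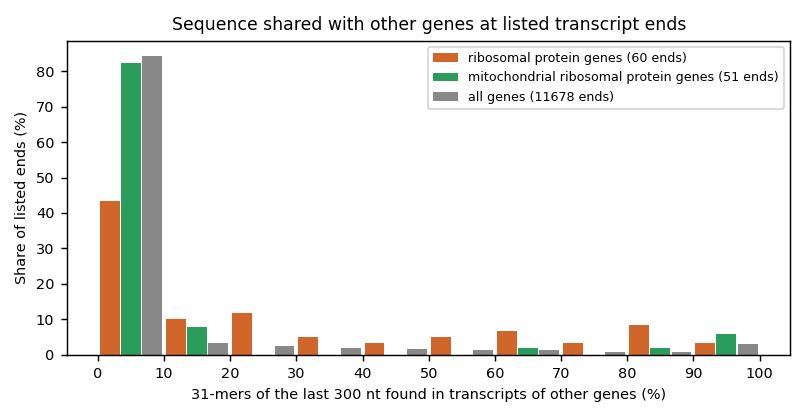
Share of placed transcript ends (vertical axis, percent) by the percent of 31-mers of their last 300 nt that occur in transcripts of other genes (horizontal axis, bins of 10), in ribosomal protein genes, genes of the mitochondrial ribosome and all genes. The lowest bin holds 43.3% of member ends and 84.4% of all ends.

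RPL7 had the highest share, with 98.5% of the 31-mers at its proximal, intronic end in other genes and 0% at its distal end. RPL9 followed with 95.9%, of which 59.3% of the 31-mers were in processed pseudogenes, and RPSA, the laminin receptor precursor and small subunit protein, with 88.9%. RPL7A had 84.4% at its distal and 35.6% at its proximal end. RPS7 went from 10.0% at its proximal to 82.2% at its distal end. RPS3 went the other way, with 61.1% at its proximal end in a coding exon and 0% at its distal end. So did RPL27A, with 52.6% and 0%. In RPL7, RPL7A, RPS7, RPS3 and RPL27A the ends of a pair thus differed in the share of 31-mers of the last 300 nt found in other genes. Shares closer to the end are not given for single genes. Whether reads at these ends could be assigned to the gene alone was therefore not tested. In 9 of the 44 members with a placed end nothing was shared at any end, and these were RPL15, RPL22L1, RPL23A, RPL28, RPL31, RPL35A, RPS14, RPS29 and RPS6. How reads that match several genes were divided was not tested.

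Some genes that are not members bear on them. HNRNPC itself had 4 sites in the MDA-LM2 table against 3 in the other. RACK1, a protein bound to the small subunit, had no pair in the MDA-LM2 table and 2 sites in the sgHNRNPC table. FAU, which encodes a ribosomal protein fused to a ubiquitin-like protein and has a symbol outside the rule, had 2 sites in each table.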

How the data were processed

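RNA of 8 samples (2 each of parental MDA-MB-231 cells, MDA-LM2 cells, sgControl cells and sgHNRNPC cells) was sequenced from mRNA 3′ ends with QuantSeq. Per the study's methods, the authors counted reads on unique Gencode 3′ ends with Salmon 0.14.1 and compared pairs of ends by multinomial logistic regression. UMI-tools is named in the submitters' processing notes. The authors deposited 1 table for each comparison, with a pair of sites per row. Its 3 columns of the authors' comparison (log change of the proximal-to-distal ratio, p-value and q-value) were not used, so no test between conditions was made. Values of single samples are not in the tables, and depth is unknown.

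Site names, strand and gene were read from both tables. The notes name hg38, but the positions do not match it, and none was converted. Ends named by transcript were given their GRCh38 place from the transcript of the same identifier and version in GENCODE 44. Signals, T runs and 31-mers were counted on transcript sequences. The 31-mer search was tested on simulated sequences. Shares have 95% Wilson intervals, which cover counting error only; ends of 1 gene are not independent, and no test was run. Members with values named are the 9 with 4 or more sites and, from 19 tied at 3 sites, the first by name, RPL11; those in 1 table, the 5 widest, and the 3 with most and the 3 with least shared sequence, where 9 tie; others were chosen after their values were seen. The members and gene lists (subunits, stalk, paralogs, Diamond-Blackfan anaemia, other TOP mRNAs, mitochondrial ribosome) were chosen with earlier results of these data known. The region of each end, transcript type, A-rich genome and gaps between positions were added after seeing the tables. Some items are not reported here. The scripts ran under Python 3.11.15 with pandas 2.3.3, numpy 2.4.6, scipy 1.17.1 and, for figures, matplotlib 3.10.9.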

Additional observations from a re-analysis of the deposited data

How the results depend on the processing

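Of 36 alternatives over 16 results, 21 moved the value by less than the main 95% interval, or a count by less than 1.5 times. The other 15 are given for the MDA-LM2 and the sgHNRNPC table in turn. Members with at least 3 sites fell to 2.17% and 4.26% with transcript ends alone and to 10.9% and 12.8% with genomic positions alone, where fewer sites are counted by construction. The share of pairs in place of sites that were in both tables was 78.5% in the sgHNRNPC table. With ends of protein-coding transcripts alone the median span was 756 and 756 nt. Taking only the most distal end of each gene, 67.5% and 71.4% carried a poly(A) signal. T runs were at 35.2% and 36.8% of ends in the last 200 nt, and runs of 6 T at 3.70% and 3.51%. More than 50% of 31-mers were shared at 13% and 12.3% of ends in the last 100 nt. The cause was not tested for the pairs, the spans, the most distal ends or the shared sequence. No paired analysis was possible because values of single samples are not in the tables, and for the same reason leaving out a replicate was not run. Depth is unknown, so whether a site is missing from a table for want of reads could not be examined.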
